A study of Mus musculus with 18 samples.

Results

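Immunity-related GTPases (IRGs) are a family of interferon-inducible GTP-binding proteins, and 8 of their genes were followed across mouse livers of 3 groups: Igtp, Irgm1, Irgm2, Iigp1, Ifi47, Tgtp1, Tgtp2 and Gm4951. The genes were chosen by symbol, and all 8 were found among the 24394 genes of the count table. Of these, 7 passed the filter on low counts and were tested, and Tgtp2 did not. The 18 livers were profiled with 3′ tag libraries, in which a read comes from the polyadenylated end of a transcript. There were 6 control wild-type (WT) livers, 6 from WT mice with a pancreatic tumour, and 6 from mice of the genotype Alb-Cre+/+;Stat3f/f with that tumour, which are called Stat3-deleted below. Alb-Cre expresses Cre recombinase from the albumin promoter in hepatocytes, where it deletes the floxed part of Stat3, a transcription factor activated by cytokines of the IL-6 family. It can also act in cholangiocytes, while immune and endothelial cells do not express it. The tumour was of PDA.69, 1 mouse pancreatic cancer line derived from the KPC model. The labels carry this line for the control livers as well, and they give no age, sex, tumour site or time. There was no tumour-free Stat3-deleted group and no group with Cre or the floxed allele alone, so deletion cannot be told apart from those alleles.

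IRG proteins are made in mouse cells after exposure to interferons, above all interferon gamma, and defend cells against intracellular parasites and bacteria. The effector proteins, among them those of Iigp1 (also called Irga6), Tgtp1 and Tgtp2 (Irgb6) and Ifi47 (Irgd), can load onto the membrane around a pathogen and break it. The regulators Irgm1, Irgm2 and Igtp (Irgm3) sit on the membranes of the cell's own organelles and keep the effectors inactive there. Transcription follows interferon receptors and JAK kinases, through factors that bind GAS and ISRE elements in promoters.

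The family is clustered in the genome. By RefSeq coordinates (GRCm38.p6, which mm10 represents), Irgm1 lies at chr11:48865245-48871420, Tgtp1 at chr11:48985329-48992246 and Tgtp2 at chr11:49057196-49064212, all on the minus strand, and Ifi47 at chr11:49076587-49096987 on the plus strand. The neighbours Igtp (chr11:58199556-58207592) and Irgm2 (chr11:58214977-58222783) are both on the plus strand. Stat3 itself is on the same chromosome as the members placed above. Its distance is 42.7 Mb from Irgm2 and 51.8 to 52.0 Mb from the members of the first group. Iigp1 and Gm4951 lie on a different chromosome from Stat3 and from the other members.

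The promoter windows of RefSeq, from 250 bases before to 50 bases after each start, held 6 of the 8 members. They were searched on both strands for the ISRE core, which is GAAA, any 2 bases and GAAA again, and the GAS core TTCNNNGAA. An ISRE match was present in 5 of the 6 windows, a GAS match in 4 of the 6 and both in 4 of the 6. Among all 32851 promoter windows of the same length, 3.44% held an ISRE match, 8.3% a GAS match and 0.454% both. The 60 bases around the matches are shown because they show how alike the members are there, with the bases of a match in capitals, 5′ to 3′ on the strand of the gene. The stretches lie at chr11:58199478-58199537 (Igtp), chr11:58214869-58214928 (Irgm2), chr11:48992308-48992367 (Tgtp1), chr11:49064267-49064326 (Tgtp2) and chr11:48871429-48871488 (Irgm1).
Igtp: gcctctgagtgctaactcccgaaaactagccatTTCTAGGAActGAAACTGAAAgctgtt
Irgm2: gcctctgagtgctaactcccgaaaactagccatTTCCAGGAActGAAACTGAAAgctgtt
Tgtp1: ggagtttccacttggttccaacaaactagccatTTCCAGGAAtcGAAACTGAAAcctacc
Tgtp2: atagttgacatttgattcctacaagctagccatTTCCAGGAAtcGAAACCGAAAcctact
Irgm1: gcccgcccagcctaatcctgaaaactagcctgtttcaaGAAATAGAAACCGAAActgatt
In Irgm1 the capitals are 2 ISRE matches that overlap, and no GAS match. The stretches of Igtp and Irgm2 were identical at 59 of 60 bases, those of Tgtp1 and Tgtp2 at 50 of 60, and those of Irgm2 and Tgtp1 shared an unbroken run of 20 bases. Over the whole window the identity was 72.8% for Igtp and Irgm2 and 66.8% for Tgtp1 and Tgtp2, and 39.3 to 50.3% for the other pairs. The window of Ifi47 held neither motif as spelled here. A match is a stretch of letters and was not tested as a binding site in these livers.

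Control libraries held 5204378 to 7149953 counts each, those of tumour-bearing WT livers 6159553 to 8838849 and those of Stat3-deleted livers 7211799 to 9532978. Levels are CPM: each count was divided by the library's total, adjusted with TMM, edgeR's normalization factor, and put on a common scale. Because 3′ tags are counted per transcript end, CPM were compared between genes without a length term. The hepatocyte marker Alb stood at 18537 to 67681 CPM in the 18 livers. Stat3 was read at 93.4 to 147 CPM in control livers, at 163 to 264 CPM in those of tumour-bearing WT mice and at 99.3 to 132 CPM in Stat3-deleted ones. The labels do not say which part of Stat3 is deleted, so its 3′ tag is no check of the deletion. Nothing in the labels says that the livers of a group came from separate litters or days. The p-values set a group difference against the spread between these livers only. The sample numbers of all Stat3-deleted livers come before those of all WT livers, while control and tumour-bearing WT numbers interleave. What the numbers stand for is not given. A difference that went with that run could not be told apart from genotype in either comparison of Stat3-deleted livers. In whole liver, more cells of a type and more RNA per cell cannot be told apart.

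Among the regulators, Igtp, Irgm1 and Irgm2 were all higher in Stat3-deleted than in tumour-bearing WT livers. Igtp was read at 21.7, 36.6, 99.0, 20.01, 18.6 and 16.5 CPM in control livers 1 to 6. In tumour-bearing WT livers it stood at 30.1, 23.7, 29.2, 38.1, 30.8 and 22.1 CPM. The Stat3-deleted livers had 443, 683, 229, 597, 853 and 71.4 CPM. Every Stat3-deleted liver was thus above every tumour-bearing WT liver, while control liver 3 was above Stat3-deleted liver 6. The mean rose from 29.0 ± 5.73 CPM to 480 ± 292 CPM (SD, n = 6), with an estimated log2 fold change of 4.05 (SE 0.50, edgeR quasi-likelihood test with Benjamini-Hochberg adjustment over 11218 genes, adjusted p = 1.716e-05), which is 16.5-fold.

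Irgm2 had 10.8, 15.3, 19.3, 11.8, 5.2 and 8.9 CPM in control and 15.3, 12.5, 18.15, 4.59, 5.12 and 10.9 CPM in tumour-bearing WT livers. In Stat3-deleted livers it had 55.9, 82.95, 36.5, 50.25, 45.2 and 30.7 CPM. It was the single tested member whose Stat3-deleted livers lay above all 12 WT livers. The rise over tumour-bearing WT livers was 2.18 on the log2 scale (SE 0.32, edgeR adjusted p = 0.0001402), or 4.53-fold. Irgm1 had a control median of 11.96 CPM (lowest 9.33, highest 22.4) and a tumour-bearing WT median of 17.3 CPM (6.80 to 19.8). Its Stat3-deleted livers ran from 14.1 to 69.6 CPM with a median of 42.04, and liver 6 lay inside the tumour-bearing WT range. Irgm1 rose by 1.44 on the log2 scale (SE 0.31, edgeR adjusted p = 0.006494), or 2.71-fold, the smallest rise among the 6 members that passed the test.

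**Figure D1:**
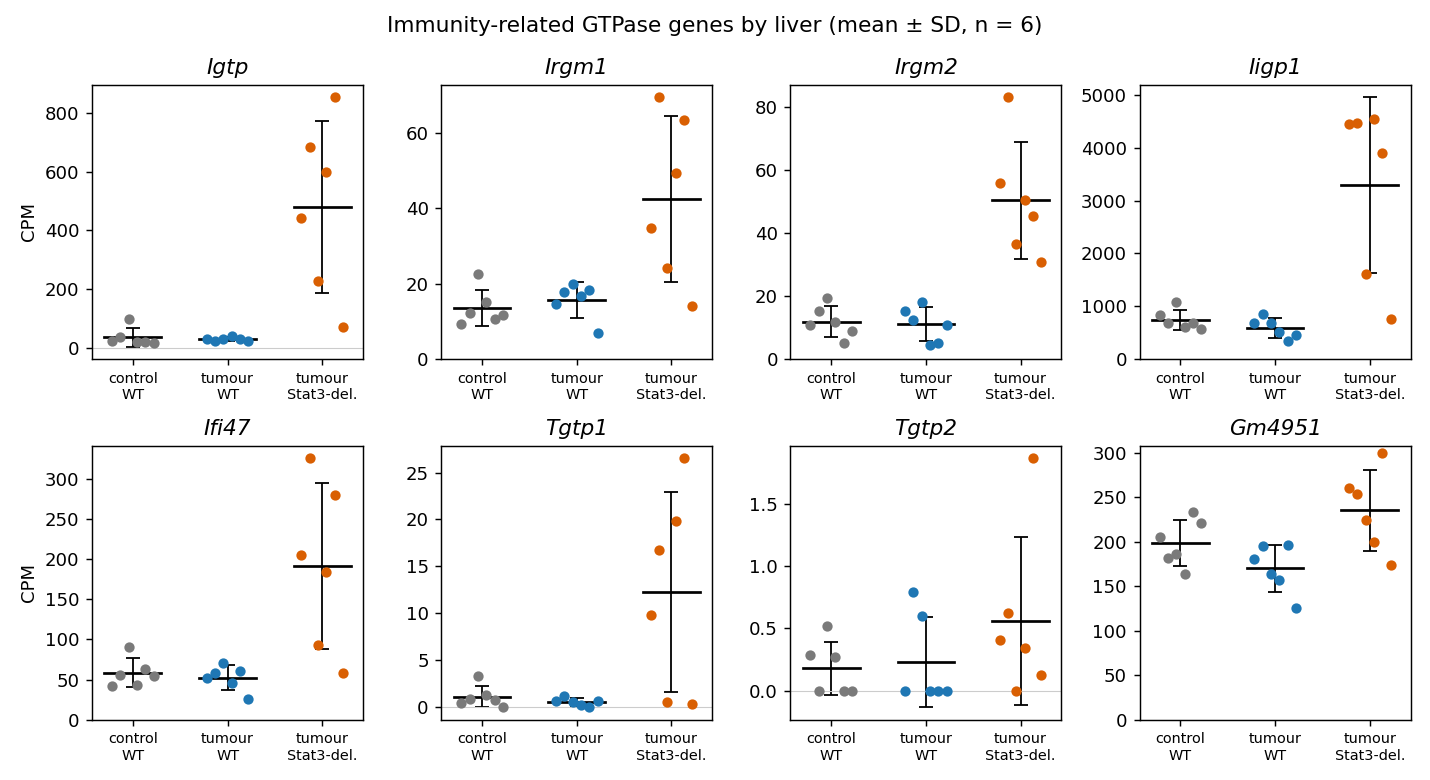
CPM of the 8 IRG genes (vertical axis, linear, a separate scale in each panel) in the 6 livers of each group (points, in replicate order), with the mean (bar) and SD (whiskers). In Stat3-deleted livers Igtp ran from 71.4 to 853 CPM and Iigp1 from 766 to 4546 CPM, with liver 6 lowest, and the ranges of Gm4951 overlapped in all 3 groups.

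Of the effectors, Iigp1 was the most abundant family member in every group. It had 835, 674, 1089, 607, 674 and 562 CPM in control and 680, 844, 683, 507, 342 and 464 CPM in tumour-bearing WT livers. Stat3-deleted livers 1, 2, 4 and 5 had 4460, 4475, 4546 and 3896 CPM, liver 3 had 1607 CPM and liver 6 had 766 CPM. Liver 6 was the single Stat3-deleted liver within the range of the tumour-bearing WT livers. The mean of Iigp1 went from 587 ± 182 CPM to 3292 ± 1669 CPM (SD, n = 6), which is a rise of 2.49 on the log2 scale (SE 0.34, edgeR adjusted p = 4.507e-05), or 5.61-fold. Ifi47 had a median of 54.9 CPM in control (42.5 to 91.1) and of 54.9 CPM in tumour-bearing WT livers (25.7 to 70.3). In Stat3-deleted livers it had 205, 326, 93.05, 184, 279 and 58.2 CPM, with liver 6 inside both WT ranges. It rose by 1.87 on the log2 scale (SE 0.32, edgeR adjusted p = 0.0006685), or 3.66-fold.

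Tgtp1 was scarce in WT livers, at 0 to 3.28 CPM in control and 0 to 1.18 CPM in tumour-bearing WT livers, with 42 and 22 counts in all. Stat3-deleted livers 1, 2, 4 and 5 had 9.81, 16.8, 19.85 and 26.55 CPM. Livers 3 and 6 had 0.482 and 0.258 CPM, from 4 and 2 counts, which is inside the WT range. The group rose by 4.58 on the log2 scale (SE 0.88, edgeR adjusted p = 0.002235), and 4 of 6 livers were above the tumour-bearing WT mean. With limma voom and sample quality weights the change was 3.37 and did not pass (adjusted p = 0.2643). Tgtp1 passed the low-count filter through the Stat3-deleted livers where it was high. It fell below the filter when Stat3-deleted liver 2, 4 or 5 was left out, and when the 2 groups of a comparison were fitted alone, so its call could not be repeated there.

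Tgtp2 stayed at or under 0.789 CPM in WT livers and reached 1.865 CPM in Stat3-deleted liver 5, its highest value. It had 0 counts in 8 libraries, where 3 counts would be 0.361 to 0.463 CPM, a limit for counting error only. In GENCODE M21 transcripts the last 500 bases of Tgtp1 and Tgtp2 were 100% identical, and all 451 windows of 50 bases were shared. The split of tags between this pair is therefore uncertain, and how the authors assigned such tags is not known here. Summed, the pair rose by 4.09 in Stat3-deleted against tumour-bearing WT livers (SE 0.86, edgeR adjusted p = 0.004967). For Igtp, 0 of 451 such windows were shared with Irgm1 or with Irgm2, so this problem was not seen for its annotated end. The RefSeq models of Igtp and Irgm2 do not overlap, whereas their GENCODE M21 models do, on the plus strand.

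Gm4951, an IRG gene of the same locus as Iigp1, had the smallest log2 fold change of the tested members in both comparisons of Stat3-deleted livers. Its control livers had 164 to 233 CPM (median 196), its tumour-bearing WT livers 126 to 197 (median 172) and its Stat3-deleted livers 174 to 299 (median 239). The 3 ranges overlapped, although 5 of 6 Stat3-deleted livers were above all tumour-bearing WT livers. The log2 fold change was 0.47 (SE 0.14) and missed the threshold (edgeR adjusted p = 0.05647). It passed in several of the alternative fits, DESeq2 among them (adjusted p = 0.02418).

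In the comparison of Stat3-deleted with tumour-bearing WT livers, 6 of the 7 tested members rose and 0 fell. Tgtp1, which passed the filter through its high livers, is among them, and without it the count was 5 of 6. Of all 11218 genes tested, 2.89% were called higher in this comparison. The median log2 fold change was 2.18 over the 7 members, Tgtp1 again among them, and -0.034 over all tested genes. Groups did not overlap for 2 members, Igtp and Irgm2, beside 1.4% of all genes with every Stat3-deleted liver higher. By the size of the log2 fold change Igtp ranked 5, Iigp1 12, Irgm2 19, Ifi47 30 and Irgm1 73 of 11218, and Gm4951 ranked 929. Irgm1 missed the threshold when the WT groups were limited to replicates 1 to 3 (adjusted p = 0.05181) or to replicates 4 to 6 (adjusted p = 0.05413), the lower and higher runs of the labels' sample numbers.

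Tumour-bearing WT livers showed no such difference from control livers. Neither edgeR, DESeq2 nor limma voom called any of the 7 members (0 of 7 each), and 0 of 7 had an unadjusted edgeR p under 0.05, beside 1.76% of all genes called higher and 0.49% called lower. The log2 fold changes were -0.28 for Igtp, 0.22 for Irgm1, -0.094 for Irgm2, -0.34 for Iigp1, -0.16 for Ifi47, -1.03 for Tgtp1 and -0.22 for Gm4951, with edgeR adjusted p from 0.4674 to 0.9242. Their median was -0.22, beside 0.0038 over all genes tested. Values without a call do not show that the groups were alike: the SE of Igtp was 0.45 and that of Tgtp1 1.02. Without control liver 3 the change of Igtp was 0.33 in the other direction (edgeR adjusted p = 0.7372), and that of Tgtp1 was -0.37 (0.9115). That liver had the highest control value of both genes, so these upward shifts follow from leaving it out.

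Against control WT livers, Stat3-deleted livers had 6 of 7 members higher (5 of 6 without Tgtp1) and 0 lower, beside 2.19% of all genes called higher and 2.66% called lower. This comparison uses the same Stat3-deleted libraries as the first and is not independent of it. Igtp rose by 3.77 (SE 0.49, edgeR adjusted p = 0.0003544), Tgtp1 by 3.55 (0.81, 0.01478), Iigp1 by 2.15 (0.33, 0.0008569), Irgm2 by 2.08 (0.32, 0.0008847), Ifi47 by 1.71 (0.32, 0.004915) and Irgm1 by 1.65 (0.32, 0.0061). Gm4951 differed by 0.24 (SE 0.14, adjusted p = 0.3459). Groups did not overlap for 1 member, Irgm2, beside 1.98% of all genes. With control replicates 1 to 3 and tumour-bearing WT replicates 1 to 3 alone, 3 of the 7 were called (Igtp, Irgm2 and Iigp1), and Tgtp1 missed the threshold with replicates 4 to 6 too (adjusted p = 0.0649) and with limma voom (0.2273).

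**Figure D2:**
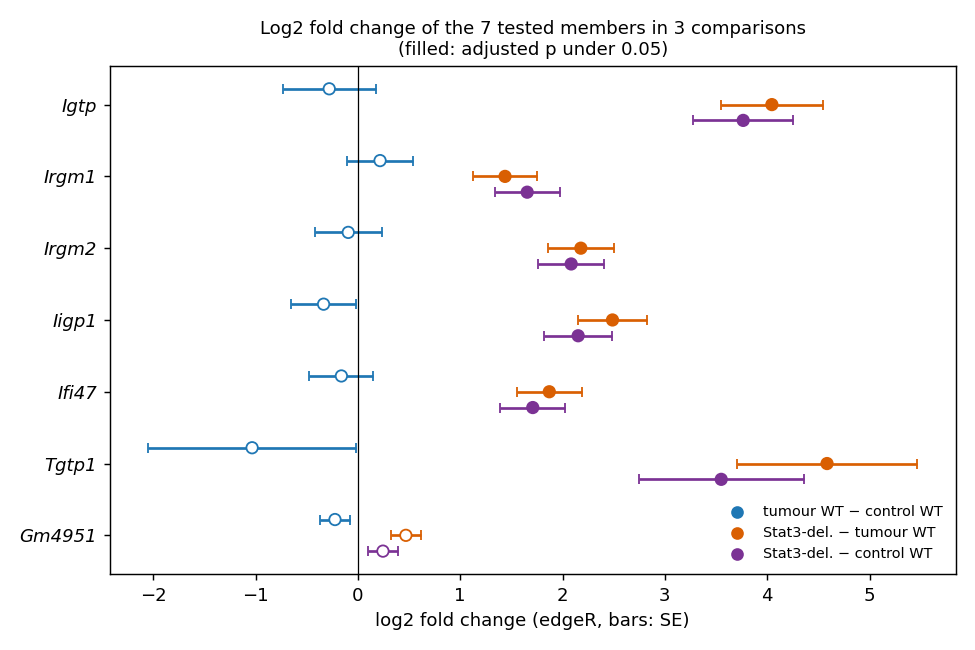
Log2 fold change (horizontal axis) of the 7 tested IRG genes in 3 comparisons, as points with SE bars, filled where the edgeR adjusted p was under 0.05. The points for tumour-bearing WT against control lie between -1.03 and 0.22 and none is filled, while 6 members are filled in both comparisons of Stat3-deleted livers.

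Members did not rise to the same degree. For each pair of tested members the log2 ratio of their CPM (with 0.5 added) was taken within each library and compared between Stat3-deleted and tumour-bearing WT livers by a two-sided exact permutation test, adjusted over 21 pairs. The smallest p this design allows is 0.00216. The ratio differed for 10 of the 21 pairs. Relative to Irgm1, Igtp gained 2.38 on the log2 scale (exact permutation adjusted p = 0.006494), and relative to its genomic neighbour Irgm2 it gained 1.45 (0.04545). Igtp also gained 1.97 on Ifi47, 1.38 on Iigp1 and 3.21 on Gm4951 (each with an exact permutation adjusted p of 0.006494). Against Tgtp1 its gain of 0.87 did not pass (0.2139).

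The other differences were smaller or were with Gm4951. Irgm1 fell behind Ifi47 by 0.41 and behind Iigp1 by 1.00 (exact permutation adjusted p = 0.006494 and 0.01515). Iigp1, Irgm2 and Ifi47 gained 1.83, 1.76 and 1.24 on Gm4951 (exact permutation adjusted p = 0.006494, 0.006494 and 0.01515). The ratio of Irgm2 to Iigp1 differed by -0.074 (adjusted p = 0.8463).

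The make-up of the family's RNA shifted with these differences. Summed over the 8 genes, the family took 1059 ± 241 CPM in control livers (SD, n = 6), 865 ± 203 CPM in the WT livers with a tumour and 4303 ± 2080 CPM in the Stat3-deleted ones. Iigp1 made up 69.5% ± 3.57, 66.9% ± 7.52 and 75.1% ± 5.15 of that sum. The share of Igtp was 3.05% ± 1.86 and 3.52% ± 1.11 in the WT groups without and with a tumour, and 10.4% ± 3.16 in Stat3-deleted livers. Gm4951 went from 20.3% ± 4.99 in tumour-bearing WT to 7.3% ± 4.69 in Stat3-deleted livers. These shares restate the pair ratios and were not tested again.

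Stat3-deleted livers differed widely among themselves. The highest liver had 11.95 times the Igtp of the lowest, 103 times the Tgtp1, 5.93 times the Iigp1, 5.59 times the Ifi47, 4.94 times the Irgm1, 2.7 times the Irgm2 and 1.72 times the Gm4951. The ratio of Tgtp1 is uncertain, since its lowest value rests on 2 counts. Livers 1, 2, 4 and 5 were above the highest tumour-bearing WT liver for all 7 tested members. Liver 3 was above it for 6 members, Tgtp1 being the exception, and liver 6 for 2, Igtp and Irgm2. Liver 6 had the lowest value of the group for 7 of 7 members and liver 3 the second lowest for 6 of 7. For these counts per liver the share over all tested genes was not worked out, so they are descriptions. Tgtp1, which passed the filter through its high livers, is among the 7. Without livers 3 and 6, an alternative added after seeing the data, 7 of 7 members were called against tumour-bearing WT and 6 of 7 against control livers. Since these livers were picked for their low member values, higher counts and folds without them follow from the choice.

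**Figure D3:**
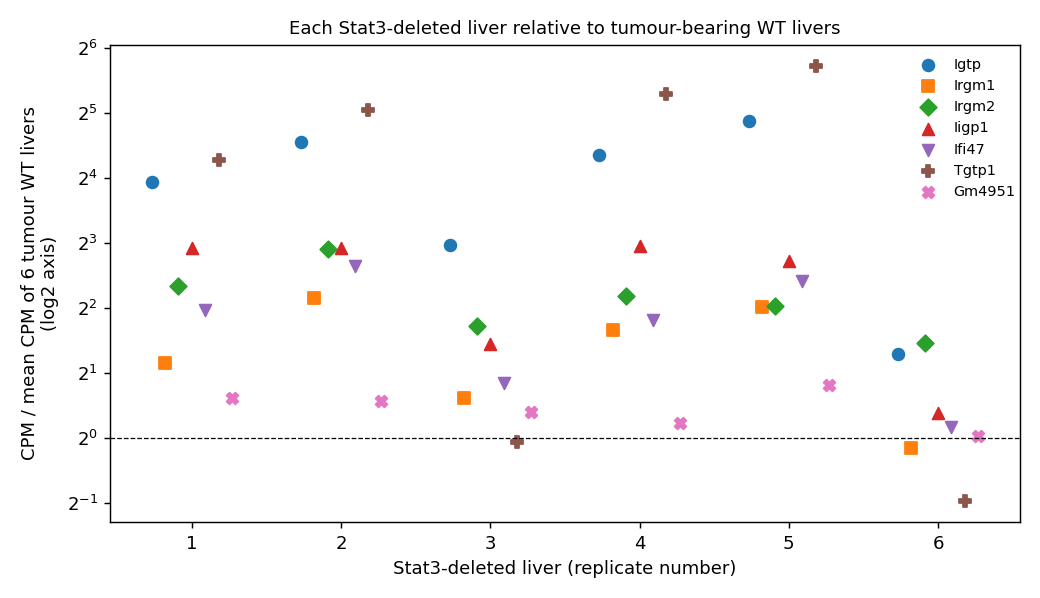
CPM of each of the 7 tested IRG genes in each Stat3-deleted liver (horizontal axis, replicate number) divided by the mean CPM of the 6 tumour-bearing WT livers (vertical axis, log2 scale, dashed line at equality). Igtp ran from 2.46 times that mean in liver 6 to 29.4 times in liver 5, Tgtp1 was below it in livers 3 and 6, and Irgm1 was below it in liver 6.

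Other interferon-stimulated genes were also lower in livers 3 and 6. The summed level of 11 guanylate-binding proteins, large interferon-inducible GTPases that act with IRGs on pathogen membranes, was 97.9 CPM in liver 3, 69.6 in liver 6 and 227 to 393 in the other 4. Antiviral interferon-stimulated genes, 25 in the list, summed to 607 and 575 CPM in livers 3 and 6 and to 986 to 1340 CPM in the other 4. T and NK cell markers summed to 27.0 and 27.9 CPM in livers 3 and 6 and to 16.8 to 41.7 in the others. Hepatocyte markers summed to 100000 and 96000 CPM there and to 91500 to 106000 in the others. Kupffer cell markers summed to 1440 CPM in liver 3 and 870 CPM in liver 6, against 1270 to 2330 CPM in the others. Monocyte and dendritic cell markers summed to 57.2 and 44.8 CPM in livers 3 and 6, against 50.4 to 78.3 CPM. Liver 6 was thus below the other 4 for both of these lists, and the part of such cells in its IRG values was not tested.

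Control liver 3 stood apart from the other controls. It had the highest control value for 6 of 7 tested members, with Gm4951 the exception. The share of all tested genes that were highest in this control was not worked out. Its library was the smallest of the 18, with 5204378 counts, and its Tgtp1 value rests on 19 counts. Its Igtp of 99.0 CPM was 4.36 times the mean of the other 5 (22.7 ± 8.0, SD), and its Tgtp1 of 3.28 CPM was 5.16 times theirs. For Irgm1, Irgm2, Ifi47 and Iigp1 the ratio was 1.9, 1.86, 1.76 and 1.62. The summed T and NK cell markers, 17 of 20 found in the table and none at 0 in all 18 livers, were 90.2 CPM in this liver. They were 10.5 to 40.8 CPM in the other controls, 16.6 to 42.1 CPM in the tumour-bearing WT group and 16.8 to 41.7 CPM in the Stat3-deleted group. This was not particular to T and NK cell markers. Kupffer cell markers summed to 1270 CPM (other controls 491 to 948) and monocyte and dendritic cell markers to 74.0 (20.7 to 39.8). Neutrophil markers summed to 52.8 CPM (23.9 to 41.4) and B cell markers to 11.6 (1.92 to 7.3). Hepatocyte, endothelial, and stellate cell and cholangiocyte sums lay inside the range of the other controls.

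Some genes chosen after their values were seen differed there as well. Cxcl9, a chemokine induced by interferon gamma, had 246 CPM in control liver 3, against 20.02 to 47.9 in the other controls, 7.1 to 43.3 in tumour-bearing WT and 30.3 to 63.6 CPM in Stat3-deleted livers. Cd74, the invariant chain of MHC class II, had 446 CPM in control liver 3 and 86.5 to 145 in the other controls. Its range was 64.4 to 145 CPM in tumour-bearing WT and 116 to 196 CPM in Stat3-deleted livers. Nkg7, a granule protein of cytotoxic lymphocytes, had 12.8 CPM against 1.51 to 3.24 in the other controls. The part of immune cells in the IRG values, of control liver 3 or of the Stat3-deleted livers, was not tested. Without control liver 3, Igtp rose by 4.38 and Tgtp1 by 4.22 in Stat3-deleted against control livers (edgeR adjusted p = 1.085e-05 and 0.01214). This liver had the highest control value of both genes, so larger rises without it follow from the choice.

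**Figure D4:**
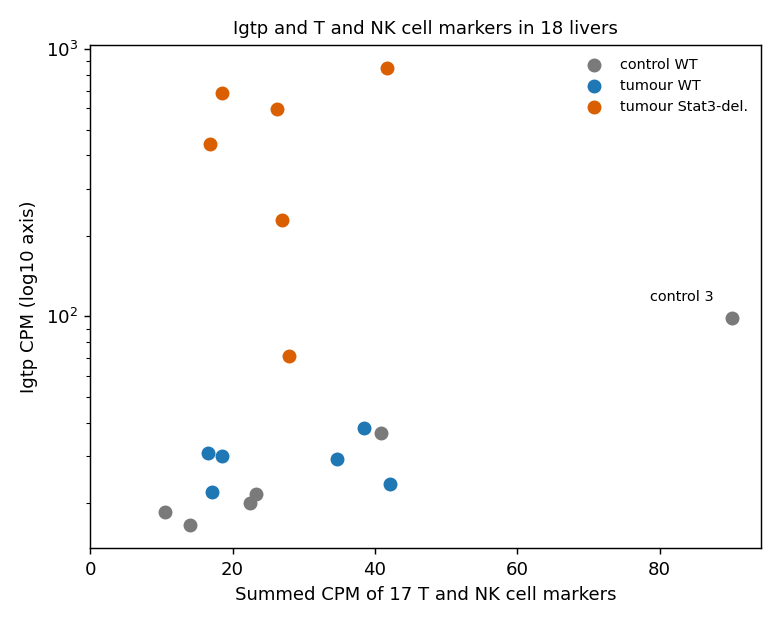
Igtp (vertical axis, CPM, log10 scale) against the summed CPM of 17 T and NK cell markers (horizontal axis, linear) in 18 livers coloured by group. Control liver 3 lies at 90.2 CPM of markers and 99.0 CPM of Igtp, and the Stat3-deleted livers have 71.4 to 853 CPM of Igtp at 16.8 to 41.7 CPM of markers.

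Family relatives outside the 8 genes followed in part. Of 13 relatives listed, 11 were in the table, 5 of them at 0 in all 18 livers, and 5 were tested. In Stat3-deleted against tumour-bearing WT livers 2 of 5 rose and 0 fell, with a median of 0.47, beside 2.89% of all genes called higher. Gm12250, which encodes the effector Irgb10, had 1.51 to 5.71 CPM in tumour-bearing WT livers and 56.3, 137, 17.9, 88.0, 160 and 4.65 CPM in the Stat3-deleted livers. It rose by 4.34 (SE 0.64, edgeR adjusted p = 0.0001176). Gm4841 rose by 2.93 (SE 0.65, edgeR adjusted p = 0.007128), with livers 3 and 6 at 1.44 and 1.81 CPM against 20.1 to 48.0 in the other 4. F830016B08Rik (0.47, edgeR adjusted p = 0.3515), Gm5431 (0.32, 0.7621) and Irgq, a diverged family member (-0.38, 0.2348), were not called. In tumour-bearing WT against control livers 0 of the 5 were called, beside 1.76% of all genes called higher and 0.49% called lower.

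Genes beside the members were read in the same fit. Within 500 kb of a member the table held 74 further genes, of which 26 were tested. In Stat3-deleted against tumour-bearing WT livers 2 of these 26 rose and 0 fell, beside 2.89% of all genes called higher and 3.23% called lower. The 2 were Gm12250 and Gm4841, themselves IRG relatives. In tumour-bearing WT against control livers 0 of 26 were called, beside 1.76% of all genes called higher and 0.49% called lower.

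The interferon pathway around the family was read from lists in the same fit, beside 2.89% of all genes called higher and 3.23% called lower. Of the 12 listed interferon ligands, receptors and kinases, 8 were tested and 0 were called (median -0.13). The smallest p belonged to the receptor-bound kinase Tyk2 (0.39, edgeR adjusted p = 0.257) and the interferon receptor chain Ifnar2 (-0.23, 0.3248). Transcripts of Ifng, which encodes interferon gamma, gave 2 counts in all 18 libraries together, and Ifnb1 gave 0. In the 16 libraries without an Ifng count, 3 counts would be 0.329 to 0.463 CPM. At this depth a difference in the ligand's RNA was not detectable.

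Among 12 tested transcription factors and regulators of the interferon response 5 rose and 0 fell (median 0.46). Usp18, an inhibitor of type I interferon receptor signalling, rose by 1.82 (edgeR adjusted p = 0.001011). The interferon regulatory factors Irf7 and Irf1 rose by 1.42 and 1.38 (0.002524 and 0.01501), and Irf9 by 0.70 (0.03939). Of 8 tested guanylate-binding proteins 2 rose, Gbp7 by 2.30 and Gbp3 by 1.54 (edgeR adjusted p = 0.0004885 and 0.01339), and 0 fell (median 0.46).

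Of 20 tested antiviral genes 9 rose and 0 fell (median 0.76). They included Ifi44 (2.06, edgeR adjusted p = 0.0029), Ifit1, which binds viral RNA caps (1.63, 0.005156), and Rsad2, which encodes viperin (1.18, 0.005156). Of 11 antigen-processing genes 7 rose and 0 fell (median 0.80). Among these were the peptide transporter Tap1 (1.79, edgeR adjusted p = 0.0008797), the immunoproteasome subunits Psmb9 (1.78, 0.002422) and Psmb10 (1.18, 0.002507), and the proteasome activator Psme1 (0.80, 0.003064). All were smaller than the change of Igtp in log2 fold change; the differences were not tested.

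Chemokines and effectors typical of interferon gamma were not called: 0 of 6 tested (median 0.50). Serpina3g was closest, at 0.72 (edgeR adjusted p = 0.08907), and Wars stood at -0.42 (0.2319). Cxcl9 had 25.5 ± 11.9 CPM in tumour-bearing WT and 46.3 ± 11.8 CPM in Stat3-deleted livers, a log2 fold change of 0.86 (SE 0.48, edgeR adjusted p = 0.3399). All 6 Stat3-deleted livers were above the tumour-bearing WT mean, though the ranges overlapped. The fit also holds the control livers, which had 67.6 ± 87.8 CPM, so this result does not show that Cxcl9 was alike. Of 10 autophagy genes whose conjugation machinery places IRG proteins on membranes 1 rose, Gabarapl1, from 272 ± 59.3 to 570 ± 53.3 CPM (1.07, edgeR adjusted p = 2.189e-05). It was also the one called in tumour-bearing WT against control livers, where it fell by 0.55 (adjusted p = 0.02857). In that comparison 0 genes of the interferon lists were called.

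Some genes tracked the family from liver to liver. The measure was Pearson's r of log2 CPM with the mean of the 7 tested members, each centred, and it is a description without a test, since the livers share the group differences. Over 18 livers the highest values outside the family's 8 genes were those of Gm12250 (0.988), Gbp7 (0.971), Meiob (0.951), Psmb10 (0.948) and Psme1 (0.946). Within the 6 Stat3-deleted livers high values were those of Nlrc5, a transactivator of MHC class I genes (0.996), Gm12250 (0.992), D16Ertd472e (0.989) and Gbp7 (0.986). Each member was also set against the mean of the other 6 over 18 livers. There r was 0.969 for Iigp1, 0.951 for Ifi47, 0.948 for Igtp, 0.916 for Irgm1, 0.895 for Tgtp1, 0.859 for Irgm2 and 0.656 for Gm4951. Within single groups the members did not always move together. Over the 6 tumour-bearing WT livers r ran from -0.185 (Igtp) to 0.786 (Iigp1), and over the 6 controls from -0.5 (Gm4951) to 0.968 (Igtp). Over the 6 Stat3-deleted livers it ran from 0.726 (Gm4951) to 0.98 (Ifi47).

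Cell type markers moved as follows in Stat3-deleted against tumour-bearing WT livers, beside 2.89% of all genes called higher and 3.23% called lower. Of 7 tested hepatocyte markers 1 rose and 0 fell, and their sum was 58600 to 122000 CPM in the WT and 91500 to 106000 CPM in the deleted livers. Of 12 Kupffer cell markers (859 to 2060 and 870 to 2330 CPM), 7 T and NK cell, 10 monocyte and dendritic cell, 9 endothelial and 1 B cell markers, 0 were called. Of 8 stellate cell and cholangiocyte markers 1 fell. Neutrophil markers fell for 4 of 5, with sums of 69.6 to 355 CPM in the WT and 39.7 to 106 CPM in the deleted livers. In tumour-bearing WT over control livers 4 of 5 had risen, though not the same 4, beside 1.76% of all genes called higher. Against control livers, Stat3-deleted livers had 4 of 12 Kupffer cell markers higher (median 0.81, sums of 491 to 1270 CPM in control livers), 2 of 9 endothelial and 1 of 10 monocyte and dendritic cell markers higher, 1 of 7 hepatocyte markers higher and 1 lower, and 0 called for the other lists. Of all genes, 2.19% were called higher and 2.66% lower against control livers. The part of these cells in the IRG values was not tested in either comparison of Stat3-deleted livers.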

How the data were processed

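RNA of 18 mouse livers (3 groups of 6) was analysed from 1 deposited table. Per the labels' protocols, tissue in TRIzol was extracted with RNeasy Mini columns and made into Quantseq 3′ FWD libraries. Per the submitters' processing notes, STAR and mm10 were used. Of the version, counting tool, annotation and strandedness, none is given in the sources used here, and tags of overlapping or antisense genes cannot be told apart. The authors deposited raw counts, not normalized. Of 24421 symbols, 27 that had become spreadsheet dates were left out (0.103 to 0.166% of counts). All columns were matched by label number, with 0 left over.

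In R 4.3.3, edgeR 4.0.16 kept 11218 genes (filterByExpr), scaled them by TMM and fitted 1 quasi-likelihood model over all 18 libraries with no covariate (15 residual degrees of freedom, biological coefficient of variation 0.281). The 3 contrasts were tested two-sided, with Benjamini-Hochberg adjustment over all tested genes and a threshold of 0.05. CPM are TMM-scaled. On simulated data for the Stat3-deleted against tumour-bearing WT contrast (11218 genes) 61 of 100 genes changed 2-fold and 93 of 100 changed 4-fold were called, with 5 of 11018 unchanged genes. Pair ratios used log2(CPM + 0.5) and an exact permutation test in scipy 1.17.1.

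Promoters came from RefSeq (GRCm38.p6) and transcript ends from GENCODE M21. Iigp1 and Gm4951 were not part of the promoter comparison. Alternatives were DESeq2 1.42.0, limma 3.58.1 (voom), RLE factors, library totals alone, other filters, the 2 groups alone, the replicate number as a block, the label-number runs, Tgtp1 and Tgtp2 summed, log2(CPM + 2) for the pair ratios, and each library left out. The members, lists and tests were chosen with earlier results of these data known. Named genes are the members, all relatives and ligand or receptor genes, up to 4 called genes per list by adjusted p (with none called, the 2 with the smallest p), and the 5 genes most like the members over 18 and over 6 livers. One gene that this rule names is not reported here. Cxcl9, Cd74 and Nkg7 were added after their values were seen.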

Additional observations from a re-analysis of the deposited data

Results flagged for a closer look

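In control liver 3, Igtp stood at 99.0 CPM, far above the other 5 controls at 16.5 to 36.6 CPM, with a gap of 0.757 of the group's range against Dixon's critical value of 0.625 for 6 livers. Tgtp1 in the same liver stood at 3.28 CPM, with the others at 0 to 1.22 CPM and a gap of 0.629 of the range. These were 2 of 21 sets of 6 values examined, and chance gives about 1 in 20.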

How the results depend on the processing

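Members called in tumour-bearing WT against control livers stayed at 0 under all alternatives run. Against tumour-bearing WT livers 5 to 7 members were called, and 5 to 7 when each library was left out. Against control livers the count was 6, 5 to 6 when each library was left out, and 3 with WT replicates 1 to 3 alone; there Ifi47 (adjusted p = 0.05179), Irgm1 (0.05645) and Tgtp1 (0.1188) missed the threshold, and the cause was not tested. No called member changed direction. Uncalled changes between tumour-bearing WT and control livers did so for Igtp (0.73 with WT replicates 4 to 6, and -0.43 to 0.33 when each library was left out) and for Irgm2 (0.012 with WT replicates 1 to 3, and -0.30 to 0.076 when each library was left out). Replicate numbers did not pair the livers: same-numbered livers correlated at -0.168 to 0.36, and 1, 0 and 2 of 6 correlated best with their own number. With the replicate block 0, 7 and 6 members and 219, 710 and 570 genes were called, and Gm4951 had 0.46 (adjusted p = 0.03508) against tumour-bearing WT livers. Pair ratios were called for 11 of 21 pairs with log2(CPM + 2).

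Counts over all genes moved more. In tumour-bearing WT against control livers 252 became 462 (DESeq2), 128 (2 groups alone), 49 (WT replicates 1 to 3) and 132 to 462 when each library was left out, by over 1.5 times without control liver 4 or 6 or tumour-bearing WT liver 1, 3 or 4. For Stat3-deleted against tumour-bearing WT livers 686 became 1097 (voom), 1063 and 350 (WT replicates 1 to 3 and 4 to 6) and 371 (without livers 3 and 6). For Stat3-deleted against control livers 544 became 860 (DESeq2), 894 (2 groups alone), 1318 (voom), 280 and 318 (WT replicates 1 to 3 and 4 to 6), 210 (without livers 3 and 6) and 258 to 783 when each library was left out, by over 1.5 times without control liver 1, 4 or 5 or Stat3-deleted liver 2, 3 or 5. With library totals alone the median change of all genes went from 0.0038 to -0.19 (tumour-bearing WT against control) and from -0.0087 to -0.13 (Stat3-deleted against control), and the higher calls went from 197 of 252 to 115 of 292, from 324 of 686 to 424 of 694 and from 246 of 544 to 139 of 511, with the same members called. Depth limits Tgtp1 and Tgtp2, which had 0 counts in 2 and 8 libraries, and Ifng.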
